A study of Mus musculus with 90 samples.

Results

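The genes described here encode cytosolic heat shock proteins, inducible and constitutive, and the mitochondrial chaperonin pair in mouse liver. They are 10 of the 24312 gene symbols in the deposited expression table: Hspa1a, Hspa1b and Hspa8 (HSP70 family), Hsph1 (HSP110), Hsp90aa1 (HSP90), Dnajb1 and Dnaja1 (J-domain co-chaperones), Hspb1 (small heat shock protein), and Hspd1 and Hspe1 (mitochondrial HSP60 and its lid HSP10). The list was selected by gene symbol with the levels of these genes in the same libraries already known, above all their rise from ZT10 to ZT14, and where a symbol had several RefSeq identifiers the one with the highest mean level was taken. The time-of-day values and counts of calls are therefore a description of that choice, given with no p-value, and nothing is read from them. Zeitgeber time (ZT) counts the hours from lights on.

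RNA was sequenced from 54 livers, 1 mouse per library, in 5 experiments on mice trained to night-restricted feeding (NRF). In the NRF experiment, wild-type C57BL/6 mice (C57BL/6N in the methods) were killed at ZT10, or at ZT14 without food (ZT14-unfed) or with food given when the lights went out (ZT14-fed), with 2 mice per group. In the injection experiment, wild-type mice of the same strain were injected shortly before the dark period with vehicle, dexamethasone (dex, 1 mg/kg, a synthetic glucocorticoid), S961 (a peptide antagonist of the insulin receptor) or both, and were fed, and a further vehicle group was left unfed, with 4 mice per group at ZT14. The labels give the S961 dose as a concentration per mouse and the methods give it by body weight, so the dose is uncertain. The labels name the peptide of the combined group S965, and it is called S961 here after the group's title. In the L-GRKO experiment, Nr3c1 fl/fl mice (C57BL/6N background in the methods) received adeno-associated virus carrying CRE or GFP, driven by a hepatocyte promoter, and were left unfed until ZT14, with 4 mice per group. In the L-IRSdKO experiment, Irs1 fl/fl and Irs2 fl/fl mice with or without Alb-Cre (C57BL/6J background in the methods) were compared. Mice of both groups received 1 mg/kg dex and food, with 4 mice per group at ZT14, so no mouse of that experiment was without dex. In the obesity experiment, wild-type C57BL/6 mice ate chow (lean) or high-fat diet (obese, labelled DIO) for 10 weeks, followed by 4 days of NRF, and were killed unfed or fed at ZT14, with 3 mice per group. The NRF, injected and L-IRSdKO mice were 10 weeks old, and the mice on chow or high-fat diet were 5 weeks old when the diets began.

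Heat shock proteins bind unfolded or newly made proteins and help them fold. HSP70 is loaded by J-domain proteins and reset by HSP110, HSP90 takes over late folding clients such as steroid receptors, small heat shock proteins hold unfolded proteins, and HSP60 with HSP10 forms the folding chamber of the mitochondrial matrix. Transcription of the inducible members is driven by heat shock factor 1 at heat shock elements, arrays of inverted GAA triplets, and in the liver these RNAs follow the daily cycle of body temperature and feeding.

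To show what these promoters share, the 160 bases before the annotated start are printed for 6 members (RefSeq, GRCm38.p6, 5′ to 3′ on the gene's strand), with heat shock element matches in capitals. The shortest match counted was a pair of triplets, GAANNTTC or TTCNNGAA, and the longer match was GAANNTTCNNGAA or TTCNNGAANNTTC, searched on both strands in the 300 bases from 250 before to 50 after each start. Hspa1b lies at chr17:34959239-34959398 (minus strand), Hsph1 at chr5:149636316-149636475 (minus), Hspb1 at chr5:135887759-135887918 (plus), Dnaja1 at chr4:40722308-40722467 (plus), Hspd1 at chr1:55087933-55088092 (minus) and Hspe1 at chr1:55087988-55088147 (plus).
Hspa1b: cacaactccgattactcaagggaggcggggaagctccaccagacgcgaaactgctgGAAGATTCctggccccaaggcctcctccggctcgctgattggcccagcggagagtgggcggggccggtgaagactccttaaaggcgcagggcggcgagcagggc
Hsph1: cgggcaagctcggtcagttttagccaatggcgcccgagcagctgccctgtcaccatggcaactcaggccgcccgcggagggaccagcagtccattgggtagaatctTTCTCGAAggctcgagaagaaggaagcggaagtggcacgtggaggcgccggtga
Hspb1: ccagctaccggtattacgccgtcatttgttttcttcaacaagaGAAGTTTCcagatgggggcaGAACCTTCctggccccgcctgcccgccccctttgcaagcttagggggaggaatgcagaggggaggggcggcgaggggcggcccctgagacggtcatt
Dnaja1: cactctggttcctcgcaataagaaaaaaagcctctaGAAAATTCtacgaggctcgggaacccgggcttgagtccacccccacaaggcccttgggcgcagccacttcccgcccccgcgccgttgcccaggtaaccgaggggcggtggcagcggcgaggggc
Hspd1: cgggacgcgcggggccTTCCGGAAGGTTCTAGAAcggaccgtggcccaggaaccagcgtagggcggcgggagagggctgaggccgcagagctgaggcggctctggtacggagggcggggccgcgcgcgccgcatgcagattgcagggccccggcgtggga
Hspe1: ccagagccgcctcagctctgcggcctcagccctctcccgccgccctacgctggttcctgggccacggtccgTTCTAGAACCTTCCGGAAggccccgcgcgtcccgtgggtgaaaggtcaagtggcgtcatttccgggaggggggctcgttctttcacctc
Hspa1b carried 1 pair of triplets, GAAGATTC, at positions -104 to -97 from the start. The Hspa1a window was identical to it at 296 of 300 bases (98.7%) and held the same match at the same place. Hspb1 held 2 separate pairs and Dnaja1 held 1. Hspd1 and Hspe1 lie head to head, and the 18-base run TTCCGGAAGGTTCTAGAA of Hspd1 and the run TTCTAGAACCTTCCGGAA of Hspe1 are the same stretch of DNA read from either strand. Hsph1 held a pair before its start and a longer match, TTCTGGAAAGTTC, at positions 16 to 28 after it. A pair was found for 7 of the 8 members with a window in the RefSeq table, against 14.3% of 9272 expressed genes with one, and a longer match for 3 of the 8 (Hsph1, Hspd1 and Hspe1), against 0.593%. Among all 32851 windows the shares were 15.1% and 0.603%. The windows of Dnajb1 held no match to these letters. Hsp90aa1 and Hspa8 have no window in the table.

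The deposited values are RPKM, read numbers scaled to transcript length and to the mapped reads of the library. From the smallest steps between low RPKM values the libraries held an estimated 26 to 38.1 M reads in the NRF experiment, 6.47 to 13.5 M reads in the injection experiment, 15.1 to 27.3 M reads in L-GRKO, 3.61 to 4.44 M reads in L-IRSdKO and 16.9 to 62.3 M reads in the obesity experiment. The L-IRSdKO estimate lies well below the aligned reads that the study lists for these libraries and is uncertain. Of low values, 46.7% to 52.5% came out as whole reads within 0.05 of a read in L-GRKO and 72.1% to 74.6% in L-IRSdKO. The NRF libraries were depleted of ribosomal RNA and the others were selected for poly(A). All 6 hepatocyte markers were at 50.5 RPKM or more in every library. Alb stood at 650 to 914 RPKM in L-IRSdKO and at 18900 RPKM or more in the other experiments, so tests were made only within an experiment. Nr3c1 fell in AAV-CRE livers (log2 change -1.58, 3.93 to 5.35 RPKM against 12.8 to 16.2) and Irs1 fell in L-IRSdKO livers (-2.66, 0.149 to 0.321 RPKM against 2.21 to 4.73). Irs2 was at 0.272 to 1 RPKM in L-IRSdKO and 0.614 to 5.61 RPKM in floxed livers, overlapping (-0.79, adjusted p = 0.308, limma). Differences below are on the log2(RPKM + 0.5) scale with their SE, from limma across all genes of an experiment with Benjamini-Hochberg adjustment. A gene was called at an adjusted p below 0.01 in the NRF and obesity experiments and below 0.05 in the others. In whole liver, fewer cells of a type and less RNA per cell cannot be told apart.

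Several members share sequence with other places in the genome. In mm9, the build of the deposited table, no 50-base stretch of the Hsph1 transcript (chr5:150416862-150438951, minus strand) occurred elsewhere, and 0.768% of those of Dnajb1 (chr8:86132074-86135801, plus) did. The share was 25% for Dnaja1 (chr4:40669183-40684182, plus), 46.5% for Hspe1 (chr1:55144976-55148151, plus), 58.5% for Hspd1 (chr1:55134679-55145087, minus) and 61% for Hspa1a (chr17:35106144-35109069, minus). It was 62.3% for Hspa1b (chr17:35093381-35096183, minus), 63% for Hspb1 (chr5:136363789-136365433, plus), 73.1% for Hsp90aa1 (chr12:111928815-111940938, minus) and 75.7% for Hspa8 (chr9:40609067-40613283, plus). Hspa1a and Hspa1b matched each other, while Hspb1 mostly matched Hsp25-ps1, Hspa8 matched Gm17431, Hspd1 matched Gm12141, and Hsp90aa1 matched sequence within Ssh2. How reads with several places were treated is not given in the sources used here, so the values of these 8 genes are uncertain to that extent. The unfed AAV-GFP livers and the unfed vehicle livers of the injection experiment, both at ZT14, differed by 1.23-fold for Hsph1 and 1.14-fold for Dnajb1, but by 2.93-fold for Hspd1, 3.64-fold for Hspa8, 3.71-fold for Dnaja1, 4.27-fold for Hspe1, 6.35-fold for Hsp90aa1 and 7.13-fold for Hspb1, higher in AAV-GFP. Hspa1a and Hspa1b stood between, at 1.82-fold and 2.72-fold. The part that shared sequence plays in these ratios was not tested. Hspa1a overlaps Gm20481 on the opposite strand over 2213 bases and Dnaja1 overlaps Smu1 over 608 bases, and with the strand setting of the counting not given, reads of such pairs cannot be told apart.

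The members, chosen with this rise known, stood lower at ZT10 than at ZT14, even without food. For Hspd1 and Hspe1 the difference without food was only 0.17 ± 0.09 and 0.26 ± 0.14 (log2, SE). In the NRF livers 10 of 10 members were higher in both ZT14-unfed mice than in both ZT10 mice, which held for 14.9% of all 10907 genes tested, and 5 were called higher (0.376% of all genes), counts that restate how the members were chosen. Hspa1b, the inducible HSP70, was at 0.823 and 0.623 RPKM at ZT10, at 9.45 and 5.12 RPKM in ZT14-unfed and at 21.3 and 22.3 RPKM in ZT14-fed livers. The 3 groups did not overlap, and the difference from ZT10 was 2.62 ± 0.24 (log2, SE) without food and 4.19 ± 0.24 with food. Hspa1a, its near twin, was at 0.039 and 0.058 RPKM at ZT10, which is about 3 and 5 reads, at 1.21 and 0.563 RPKM in ZT14-unfed and at 0.99 and 1.08 RPKM in ZT14-fed livers. It was the member with overlapping fed and unfed groups. Hspa8, the constitutive HSP70, had the highest RPKM of the set in every NRF group and was at 56 and 43.2 RPKM at ZT10, 143 and 136.5 RPKM in ZT14-unfed and 169.9 and 195.9 RPKM in ZT14-fed livers, a difference from ZT10 of 1.50 ± 0.14 without food and 1.88 ± 0.14 with food.

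The partners of HSP70 moved in the same order. Hsph1, the nucleotide exchange factor that reopens HSP70, was at 2.11 and 1.95 RPKM at ZT10, 12.7 and 10.4 RPKM in ZT14-unfed and 21.8 and 31.4 RPKM in ZT14-fed livers. This was a difference of 2.25 ± 0.18 without food and 3.40 ± 0.18 with food. Dnajb1, which delivers unfolded clients to HSP70, was at 4.19 and 3.02 RPKM, then 10.9 and 7.15 RPKM, then 11.4 and 12 RPKM, so most of its difference was present without food (1.20 ± 0.21 of 1.59 ± 0.21). Dnaja1, another J-domain partner, was at 7.24 and 6.93 RPKM, then 13.2 and 11.3 RPKM, then 22.1 and 20.4 RPKM. It differed by 0.75 ± 0.11 from ZT10 without food and by 0.77 ± 0.11 between unfed and fed.

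Hsp90aa1, the inducible HSP90, was at 4.33 and 3.54 RPKM at ZT10, 15.1 and 12.8 RPKM in ZT14-unfed and 22.5 and 25.7 RPKM in ZT14-fed livers, with no overlap and differences of 1.71 ± 0.14 and then 0.77 ± 0.14. Hspb1, which holds unfolded proteins without ATP, was at 1.27 and 0.937 RPKM, then 5.85 and 5.36 RPKM, then 7.76 and 6.93 RPKM. Most of its difference was present without food (1.94 ± 0.13 of 2.30 ± 0.13). The mitochondrial pair moved least. Hspd1 was at 47.4 and 42 RPKM at ZT10, 50.2 RPKM in both ZT14-unfed and 56.1 and 55.4 RPKM in ZT14-fed livers, 0.32 ± 0.09 between ZT10 and ZT14-fed, and Hspe1 was at 22.1 and 17 RPKM, 23.4 and 23.2 RPKM, and 29.4 and 34.8 RPKM, 0.71 ± 0.14 between the same groups.

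**Figure D1:**
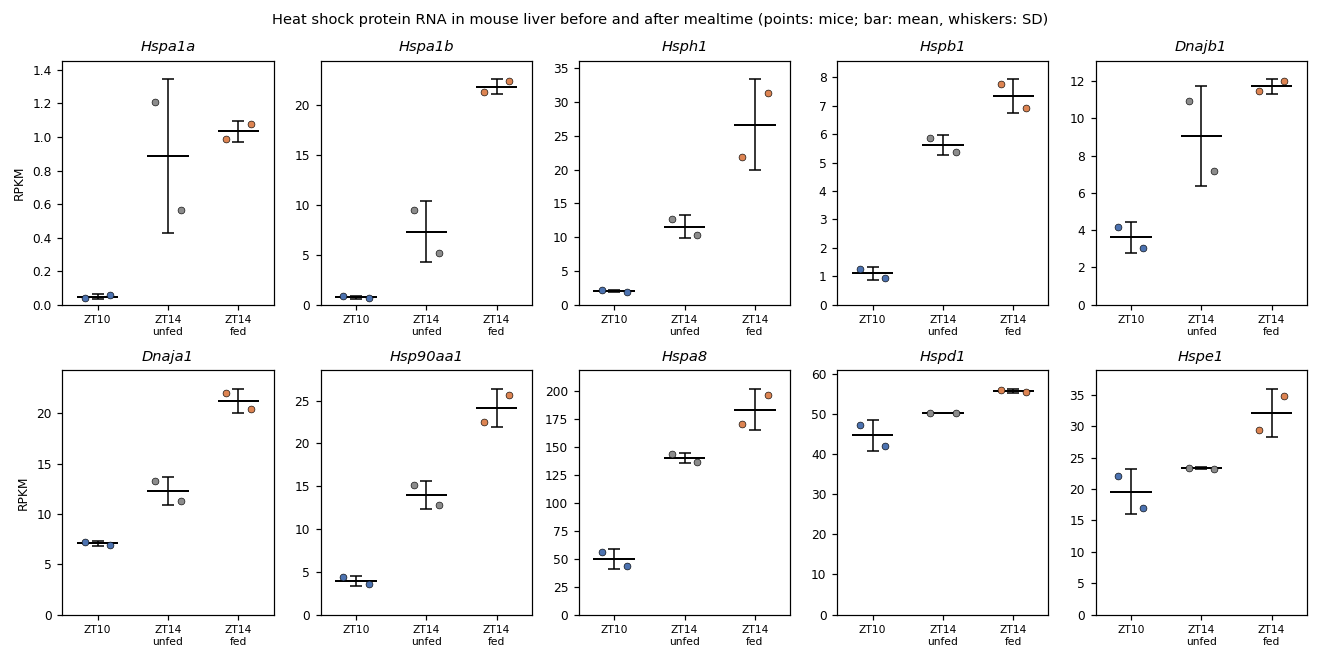
RPKM (vertical axis, from 0) of the 10 heat shock protein genes in single NRF livers at ZT10, ZT14-unfed and ZT14-fed; points are mice, bars are means of 2 mice and whiskers are SD. Hspa1b climbs from below 1 RPKM at ZT10 to 21.3 and 22.3 RPKM after the meal, while Hspd1 stays between 42 and 56.1 RPKM.

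Between ZT14-unfed and ZT14-fed NRF livers 9 of 10 members were higher in both fed mice, which 45.6% of all genes were too, and the median over all genes was 0.12 higher. None of the 10 was called, against 0.99% of all genes in either direction. Between ZT10 and ZT14-fed, 10 of 10 did not overlap and were higher (29.9% of all genes), and 7 were called higher (0.899%), which again restates the choice. The median difference of the members was 1.40 for ZT14-unfed against ZT10, 0.42 for fed against unfed and 1.73 for ZT14-fed against ZT10, with medians over all genes of -0.10, 0.12 and 0.01. With 2 mice per group these counts moved with single libraries: without ZT10 replicate 2 no member was called in ZT14-unfed against ZT10, without ZT10 replicate 1 there were 2, and without either ZT14-fed mouse 1 of the 7 calls against ZT10 was left. Cirbp, a cold-inducible RNA-binding protein, ran the other way, with 4.88 and 6.2 RPKM at ZT10, 1.9 and 1.48 RPKM in ZT14-unfed and 1.62 and 1.68 RPKM in ZT14-fed livers. Rbm3, the other gene of that list, was not called. It differed from ZT10 by -0.31 ± 0.12 in ZT14-unfed and -0.13 ± 0.12 in ZT14-fed livers, and by 0.17 ± 0.12 between unfed and fed.

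In vehicle-injected mice, the question was whether a meal alone moves these genes at a fixed time, in mice other than those of the NRF experiment. Hsph1 and Hsp90aa1 had the smallest adjusted p-values, but no member passed the test. Hsph1 was at 22.8, 27.9, 31 and 34 RPKM in unfed and 64.4, 75.8, 41.1 and 70 RPKM in fed vehicle livers. The groups did not overlap, and the difference was 1.08 ± 0.32 (adjusted p = 0.0751, limma). Hsp90aa1 was at 10.1, 10.3, 13.5 and 17.6 RPKM in unfed and 25.4, 28.1, 16.8 and 32.7 RPKM in fed livers, overlapping through fed replicate 3 (0.97 ± 0.29, adjusted p = 0.0767, limma). Dnaja1 did not overlap either, with 21.8, 22.2, 25.9 and 28.7 RPKM unfed and 37.3, 32, 29.4 and 36.2 RPKM fed (0.45 ± 0.15, adjusted p = 0.12, limma).

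Hspa1b spread widely in fed vehicle livers, with 12, 14.1, 6.39 and 39.5 RPKM against 3.8, 6.18, 7.85 and 8.31 RPKM unfed (1.14 ± 0.57, adjusted p = 0.281, limma). Hspa8 was at 141.4, 150.3, 137.7 and 252.7 RPKM fed and 110.8, 119.3, 127.4 and 216.6 RPKM unfed, so replicate 4 was high in both groups. Of the 10 members 0 were called by limma, against 3.13% of all genes in either direction, and 3 had an unadjusted p under 0.05. Higher values in every fed than in every unfed mouse were found for 2 members, against 11% of all genes. The median difference was 0.41 for the members and 0.10 for all genes. The calls over all genes were 287 higher and 65 lower as deposited, and 100 and 116 after scaling libraries to a common median ratio.

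Replicate 4 of every injection group carries library numbers apart from replicates 1 to 3. For Hspa8 it stood above the other 3 mice in 4 of the 5 groups, for Hspd1 and Hspe1 in 3 of the 5 and for Hspa1b in 3 of the 5, and for Hsph1 in 2 with 2 below. With this run of library numbers as a term, 2 members were called higher in fed vehicle livers, Hsp90aa1 (adjusted p = 0.038, limma) and Hsph1 (adjusted p = 0.045). Replicates 1 to 3 alone gave 1.10 ± 0.32 for Hsph1 and 1.00 ± 0.29 for Hsp90aa1. The markers of Kupffer cells, the liver's macrophages, moved with this comparison: 3 of 7 were higher in fed vehicle livers and their summed level was 79 to 115 RPKM, against 55.4 to 68.6 RPKM unfed. Their part in the member values was not tested.

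Dex or S961 alone gave no call for any member, and the combination lowered 4 of them. These 3 comparisons use the same 4 fed vehicle livers as control, so they are not independent of each other. For dex alone 0 of 10 members were called by limma and 0 had an unadjusted p under 0.05, against 3.19% of all genes called in either direction. Differences ran from -0.47 ± 0.57 (Hspa1b) to 0.15 ± 0.19 (Dnajb1). In dex livers the spread was wide, with Hspa1b at 3.77, 5.59, 11.9 and 42 RPKM and Hsph1 at 34.4, 50.9, 68.1 and 78.7 RPKM, and replicate 4 was the highest for 9 of 10 members.

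For S961 alone 0 were called by limma and 3 had an unadjusted p under 0.05, against 1.9% called in either direction. Dnaja1 was lower in every S961 liver, at 26.2, 21.4, 27.7 and 21.1 RPKM (-0.48 ± 0.15, adjusted p = 0.136, limma). Hsph1 was split within the group, with 59.8 and 58.5 RPKM in replicates 1 and 3 and 27.4 and 19.2 RPKM in replicates 2 and 4 (-0.72 ± 0.32, adjusted p = 0.319, limma).

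With dex and S961 together 4 of 10 members were called lower than in fed vehicle livers, against 7.9% of all genes called lower. Hsph1 fell to 31.2, 20.2, 32.3 and 19.6 RPKM, all below the lowest fed vehicle mouse at 41.1 RPKM (-1.27 ± 0.32, adjusted p = 0.017, limma). Hsp90aa1 fell to 11.8, 9.81, 14.2 and 11.6 RPKM, below 16.8 RPKM (-1.06 ± 0.29, adjusted p = 0.0259, limma). Both genes were then near their unfed vehicle levels of 28.9 and 12.9 RPKM on average, though that contrast was not tested. Dnajb1 fell to 9.74, 8.42, 8.72 and 7.41 RPKM from 12.4, 16, 10.4 and 16.6 RPKM (-0.64 ± 0.19, adjusted p = 0.0319, limma), and Hspb1 to 2.71, 2.25, 1.77 and 1.24 RPKM from 4.05, 8.45, 4 and 11 RPKM (-1.48 ± 0.47, adjusted p = 0.0489, limma).

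Hspa1b had the largest difference of the set in this comparison and did not pass: 4.49, 3.92, 5.52 and 3.48 RPKM, all below the fed vehicle mice (-1.64 ± 0.57, adjusted p = 0.0721, limma). Dnaja1 was also lower in every mouse (28.7, 21.5, 25.2 and 25 RPKM, -0.42 ± 0.15, adjusted p = 0.0923, limma). Hspa8, Hspd1, Hspe1 and Hspa1a overlapped, with -0.39 ± 0.24, -0.21 ± 0.11, -0.35 ± 0.18 and -0.40 ± 0.39. In all, 6 members were lower without overlap, against 13.5% of all genes, and the member median was -0.53 against -0.14 for all genes. The calls over all genes were 304 higher and 889 lower as deposited and 468 and 305 after median-ratio scaling, under which 1 member, Hsph1, was still called.

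**Figure D2:**
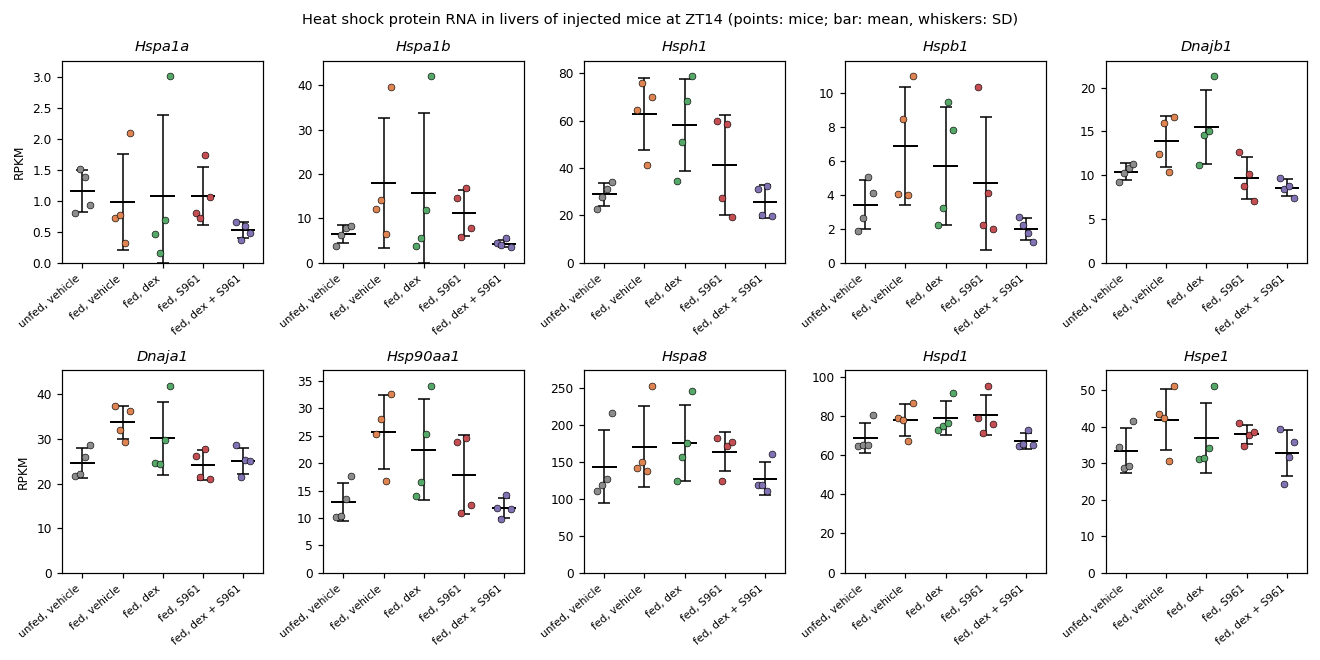
RPKM (vertical axis, from 0) of the 10 genes in single livers of the injection experiment at ZT14: unfed vehicle, fed vehicle, and fed with dex, S961 or both; points are mice, bars are means of 4 mice and whiskers are SD. The 4 combined-treatment mice lie below all 4 fed vehicle mice for Hspa1b, Hsph1, Hspb1, Dnajb1, Dnaja1 and Hsp90aa1, while single treatments spread across the vehicle range for most genes.

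These 4 calls were lost with some single libraries left out. No member was called without fed vehicle replicate 2, or without replicate 2 or 4 of the combined group, 1 was called without fed vehicle replicate 4, and 2 without replicate 3 of the combined group. The interaction, which asks whether dex acts differently in the presence of S961, called 0 of 10 members by limma, with 0 at an unadjusted p under 0.05, and 0% of all genes, so a joint effect larger than the sum was not shown. Its estimates ran from -0.71 ± 0.81 (Hspa1b) to 0.25 ± 0.22 (Dnaja1). The Kupffer cell markers moved here too, with 4 of 7 lower in the combined group (sum 58.8 to 71.4 RPKM) and 3 of 7 lower with S961 alone (52.5 to 77.1 RPKM). With dex alone Cd5l of this list was called lower (-0.74 ± 0.18), and the sum was 47.5 to 82.8 RPKM. The shared fed vehicle livers stood at 79 to 115 RPKM and the unfed vehicle livers at 55.4 to 68.6 RPKM. The part of these markers in the member values was not tested.

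Loss of the glucocorticoid receptor in unfed hepatocytes left no member called. By limma 0 of 10 were called and 0 had an unadjusted p under 0.05, against 6.68% of all genes in either direction. Hsph1 was at 32.3, 19.6, 39.7 and 50.5 RPKM in AAV-GFP and 30.4, 29, 41.9 and 34.2 RPKM in AAV-CRE livers, fully overlapping (difference -0.00 ± 0.24). Dnajb1 was at 13.7, 7.46, 12.6 and 13.6 RPKM against 10.9, 11.7, 13.9 and 11.7 RPKM (0.06 ± 0.18). Hspa1b had the largest estimate, with 12.7, 9.42, 23.5 and 25.4 RPKM in AAV-GFP and 28.5, 24.3, 21.4 and 23.4 RPKM in AAV-CRE livers (0.55 ± 0.27, adjusted p = 0.29, limma). AAV-GFP replicate 2 was the lowest of its group for 9 of 10 members. All 3 erythrocyte markers tested were higher in AAV-CRE livers (sum 331 to 623 RPKM against 223 to 289 RPKM).

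In fed, dex-treated L-IRSdKO livers, Hsph1, Dnajb1, Dnaja1 and Hsp90aa1 fell. These 4 of 10 members called lower compare with 8.31% of all genes, and the same 4 were lower without overlap, against 9.58%. Hsph1 was at 68.4, 105.2, 84.4 and 103.3 RPKM in floxed and 54.5, 52.9, 48.3 and 50.2 RPKM in L-IRSdKO livers (-0.79 ± 0.13, adjusted p = 0.00682, limma). Dnajb1 was at 23.8, 35.3, 27.3 and 41.3 RPKM against 19.1, 18.1, 14.5 and 17.6 RPKM (-0.84 ± 0.17, adjusted p = 0.0133, limma). These 2 genes are the members with almost no sequence shared elsewhere. Hsp90aa1 was at 19, 27.9, 26.2 and 28.1 RPKM against 17.5, 15.9, 14.3 and 14.7 RPKM (-0.67 ± 0.13, adjusted p = 0.0129, limma), and Dnaja1 at 24.5, 32.4, 28.1 and 28.7 RPKM against 23.2, 17.6, 19.8 and 17.4 RPKM (-0.54 ± 0.12, adjusted p = 0.018, limma).

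The other members overlapped between the genotypes. Hspa1b was at 10.3, 33.9, 15.5 and 16.8 RPKM in floxed and 12.6, 8.92, 13.2 and 14.2 RPKM in L-IRSdKO livers (-0.51 ± 0.31, adjusted p = 0.288, limma). Hspa8 (-0.11 ± 0.36), Hspb1 (-0.02 ± 0.30), Hspa1a (0.01 ± 0.33), Hspe1 (-0.03 ± 0.07) and Hspd1 (0.13 ± 0.07) gave small estimates, of which the mitochondrial pair had the narrowest errors. Floxed replicate 1 was the lowest of its group for 9 of 10 members. Hsph1, Dnajb1 and Hsp90aa1 stayed called under every one of 17 alternative settings of the test at the 0.05 threshold, each library left out included, and Dnaja1 was lost under 3 of them (adjusted p up to 0.0659).

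Over all 12966 genes tested, 1175 were called higher and 1078 lower in L-IRSdKO livers. Markers of other cells also differed between these genotypes: 4 of 6 endothelial markers were higher (sum 125 to 161 RPKM against 97.4 to 122 RPKM) and 2 of 4 cholangiocyte markers were lower (7.87 to 13.9 RPKM against 19.7 to 46.2 RPKM). Of 7 Kupffer cell markers 1 was higher, and the sums overlapped (280 to 351 RPKM against 163 to 299 RPKM). Of the stellate cell and fibroblast markers 2 of 6 tested were higher (sum of the list 130 to 151 RPKM against 107 to 129 RPKM), 1 of 3 erythrocyte markers tested was lower (58.7 to 85.8 RPKM against 85.9 to 148 RPKM), and of the 6 hepatocyte markers 1, Ttr, was lower (-0.45 ± 0.10, adjusted p = 0.0175, limma). Of the immediate-early genes, which respond fast to stimulation or handling, 6 of 11 were higher (248 to 339 RPKM against 183 to 216 RPKM). Their part in the member values was not tested.

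**Figure D3:**
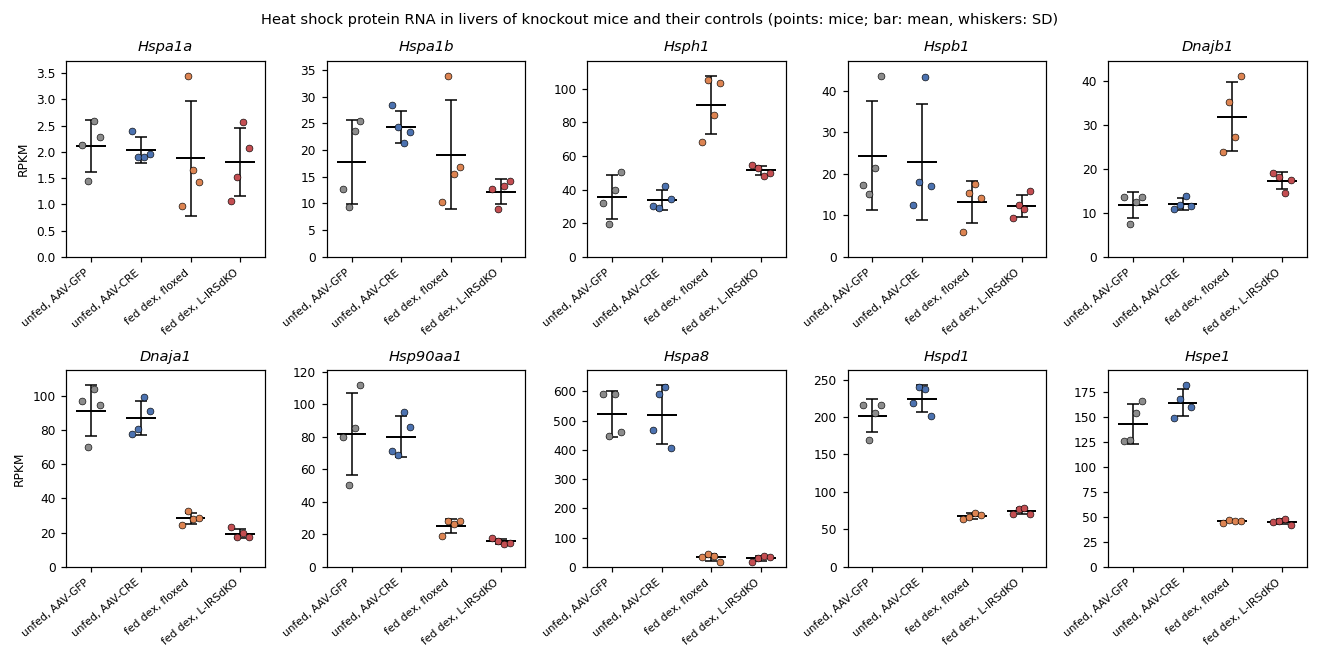
RPKM (vertical axis, from 0) of the 10 genes in single livers of the knockout experiments: unfed Nr3c1 fl/fl mice with AAV-GFP or AAV-CRE, and fed, dex-treated floxed or L-IRSdKO mice; points are mice, bars are means of 4 mice and whiskers are SD. Hsph1, Dnajb1, Dnaja1 and Hsp90aa1 separate in the L-IRSdKO pair and none separates in the AAV pair; levels are not comparable between the experiments.

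In the obesity experiment the meal was tested again at ZT14, in lean and in obese mice. Hspa1a averaged below 0.5 RPKM and was not tested, which leaves 9 members. In lean mice Dnaja1 and Hsp90aa1 rose, 2 of 9 against 7% of all genes called higher, and 8 of 9 had an unadjusted p under 0.05. Dnaja1 was at 19.4, 22.4 and 23.1 RPKM unfed and 46.2, 43.3 and 47.5 RPKM fed (1.06 ± 0.21, adjusted p = 0.00544, limma). Hsp90aa1 was at 6.26, 9.67 and 10.5 RPKM unfed and 20.8, 24.4 and 27.3 RPKM fed (1.43 ± 0.31, adjusted p = 0.00864, limma). All 9 members tested were higher in every fed lean mouse than in every unfed one, which held for 29% of all genes.

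The other lean differences did not pass 0.01. Hspa1b was at 1.46, 2.87 and 4.75 RPKM unfed and 8.64, 10.7 and 13.2 RPKM fed (1.78 ± 0.51, adjusted p = 0.0274, limma), and Hsph1 at 12.5, 23.3 and 28.6 RPKM unfed and 49.6, 58 and 53.6 RPKM fed (1.38 ± 0.41, adjusted p = 0.0328, limma). Hspa8 was at 74.8, 99 and 108.6 RPKM against 155.7, 171.7 and 178.6 RPKM (0.85 ± 0.20, adjusted p = 0.0113, limma). Hspb1 was at 1.42, 3.65 and 4.33 RPKM unfed and 4.51, 7.1 and 9.09 RPKM fed (1.08 ± 0.45, adjusted p = 0.109, limma). Smaller estimates were those of Dnajb1 (0.32 ± 0.17), Hspd1 (0.21 ± 0.08) and Hspe1 (0.38 ± 0.13). The lean member median was 1.06, against 0.08 for all genes. Leaving out any 1 of the 6 lean mice ended both calls. Over all genes 800 were higher and 369 lower as deposited, and 474 and 481 after median-ratio scaling, which kept the call of Dnaja1.

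In obese mice no member passed 0.01 by limma, against 1.22% of all genes in either direction, and 7 of 9 had an unadjusted p under 0.05. Hsp90aa1 was at 3.96, 9.03 and 11.3 RPKM unfed and 25, 19.9 and 17.2 RPKM fed (1.40 ± 0.31, adjusted p = 0.025, limma). Hsph1 was at 6.68, 19.3 and 24.4 RPKM unfed and 58.4, 47.6 and 37.6 RPKM fed (1.64 ± 0.41, adjusted p = 0.0358, limma), and Hspa8 at 51.5, 79.8 and 97.1 RPKM against 158.5, 157.2 and 155.9 RPKM (1.09 ± 0.20, adjusted p = 0.0118, limma). Without overlap 6 of 9 were higher in fed mice, against 16.8% of all genes, and the member median was 0.93 against 0.02.

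The meal effects of lean and obese mice were not shown to differ. The interaction of diet and meal called 0 of 9 members by limma, with 0 at an unadjusted p under 0.05, against 0.131% of all genes, and its estimates ran from -0.58 ± 0.64 (Hspb1) to 0.26 ± 0.58 (Hsph1). Obese against lean, 0 members were called in unfed mice (0 at an unadjusted p under 0.05, 0.77% of all genes called) and 0 in fed mice (1 at an unadjusted p under 0.05, 0% of all genes). Dnaja1 was lower in every fed obese mouse (39.1, 41.6 and 41.9 RPKM) than in every fed lean one and did not pass the test (-0.16 ± 0.21, adjusted p = 0.723, limma). It was the 1 member of 9 lower without overlap there, which held for 1702 of all 11434 genes tested. In obese unfed mice replicate 1 was the lowest for 9 of 10 members, Hspa1a included. The immediate-early genes were lower in fed lean mice for 3 of 10 tested, with sums of 65.8 to 76.6 RPKM against 107 to 117 RPKM unfed, and 1 of 6 endothelial markers was lower (42.3 to 48.9 RPKM against 57.6 to 69.3 RPKM). Their part in the member values was not tested.

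**Figure D4:**
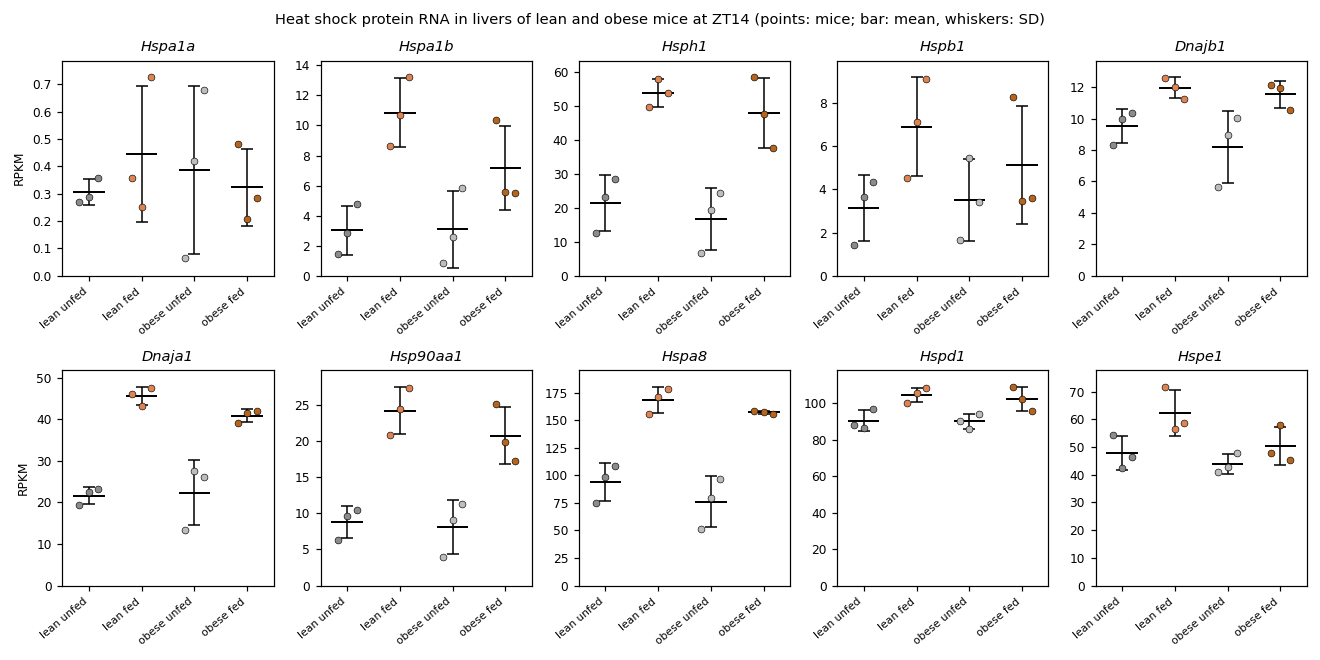
RPKM (vertical axis, from 0) of the 10 genes in single livers of lean and obese mice at ZT14, unfed or fed; points are mice, bars are means of 3 mice and whiskers are SD. Fed mice of either diet lie above unfed ones for Hsph1, Dnaja1, Hsp90aa1 and Hspa8, and lean and obese mice overlap except for Dnaja1 after the meal. Lower values without overlap in fed obese mice were found for 1702 of all 11434 genes tested.

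**Figure D5:**
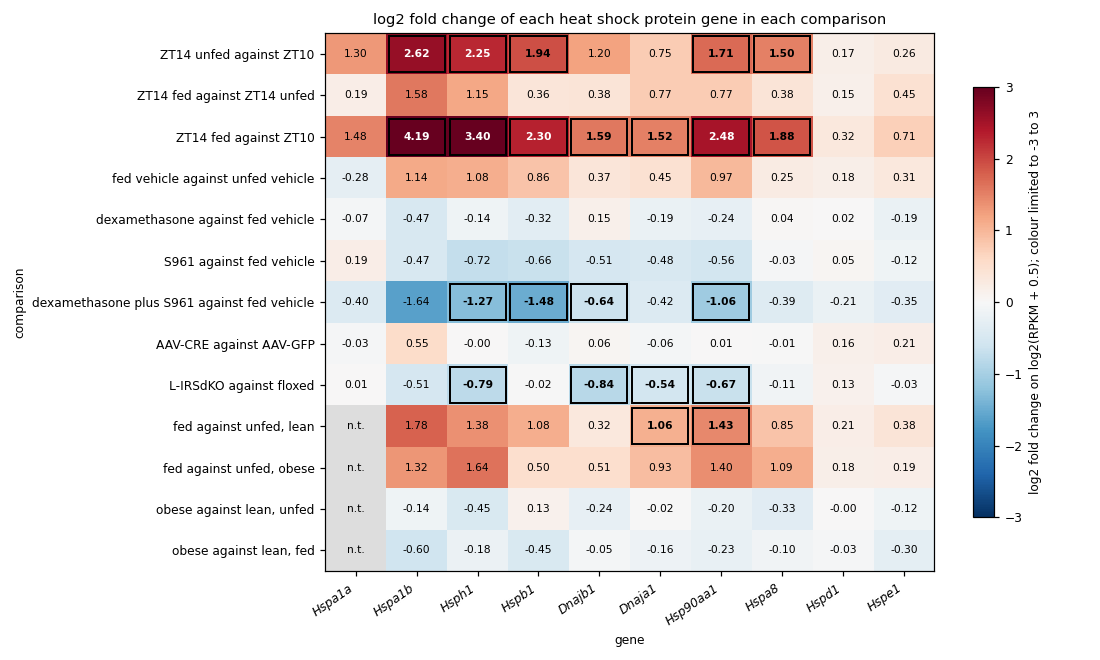
Heat map of the log2 difference on the log2(RPKM + 0.5) scale (printed in each cell, colour limited to -3 to 3) for the 10 genes (columns) in each comparison (rows); boxes mark calls, n.t. marks genes not tested. Hspa1b runs from -1.64 with dex plus S961 to 4.19 for ZT14-fed against ZT10, and Hspd1 from -0.21 to 0.32 over the same comparisons.

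The spread between mice of a group also differed by gene. The median coefficient of variation over the groups was 45.1% for Hspb1, 40.5% for Hspa1b, 39.5% for Hspa1a and 23% for Hsph1, and 18.4% for Hspa8, 18% for Hsp90aa1, 16.4% for Dnajb1, 12.9% for Hspe1, 11.5% for Dnaja1 and 6.36% for Hspd1. Mice of a group were high or low for several members together. Within groups, the correlation of each member with the mean of the other 9 over 54 libraries ran from 0.52 (Hspa8) to 0.92 (Hsp90aa1), and the median over the 45 pairs of members was 0.55. In single experiments this correlation ran from -0.07 (Hspe1) to 0.99 (Hsp90aa1), both in the obesity experiment, and was 0.07 for Hspa8 in L-IRSdKO. The fed vehicle group showed members moving together most plainly: replicate 3 was the lowest for 10 of 10 members and replicate 4 the highest for 8. The points of a correlation share their library, its depth and its handling, so these are descriptions.

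The genes most like the members over the 54 libraries, centred within each experiment, were ranked by their correlation with the member mean among 10512 genes. They were Hsp90ab1, the constitutive HSP90 (r = 0.96), Stip1, which bridges HSP70 and HSP90 (0.93), Ahsa1, the HSP90 ATPase activator (0.92), Hspa4l, an HSP110 relative (0.90), P4ha1, a collagen prolyl hydroxylase subunit (0.89), Chordc1, an HSP90 partner (0.89), Ahsa2 (0.87) and Cacybp (0.86). Cirbp had an r of -0.56, Rbm3 -0.25 and Hsf1 0.51. This centring keeps the differences between groups, among them the rise from ZT10 to ZT14 known when the members were chosen. Centred within groups, the 8 genes most alike ran from 0.69 (Chordc1) to 0.91 (Hsp90ab1). Cirbp then stood at -0.32, Rbm3 at -0.52 and Hsf1 at 0.28. All of these values are descriptions.

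Several partners of HSP90 and HSP70 outside the set were called as well. In L-IRSdKO livers 6 of 18 cytosolic co-chaperones tested were lower (8.31% of all genes) and none higher, with Bag3, an HSP70 co-chaperone, at -1.30 ± 0.20 (adjusted p = 0.00527, limma) and Stip1 at -0.48 ± 0.11 (adjusted p = 0.02). The median of the list was -0.27, against 0.03 for all genes. In the lean meal 8 of 18 were higher (7% of all genes, median 0.49 against 0.08), Stip1 by 0.98 ± 0.14 (adjusted p = 9.89e-04, limma), and in the obese meal 3 of 18 (1.22% of all genes in either direction, median 0.20 against 0.02). With dex plus S961, 3 of 18 were lower (7.9% of all genes, median -0.25 against -0.14). Of the other cytosolic HSP70, HSP90 and HSP110 genes, 3 of 5 tested were lower with dex plus S961 and 1, the HSP70 gene Hspa2, was higher (1.23 ± 0.22, adjusted p = 0.00169, limma). Hspa2 was also higher with dex alone (1.06 ± 0.22, adjusted p = 0.0115, limma), the same 4 fed vehicle livers being the control. Hspa4l fell by 1.36 with dex plus S961 (adjusted p = 0.0132, limma), fell by 0.82 in L-IRSdKO livers (adjusted p = 0.0282) and was 1.02 higher after the lean meal (adjusted p = 0.00452). Hsp90ab1 followed at -0.73, -0.20 and 0.64 (adjusted p = 0.022, 0.0437 and 0.00561, limma).

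Few of the remaining cytosolic and mitochondrial chaperones passed the test. Of the small heat shock proteins other than Hspb1, Hspb8 was lower in AAV-CRE livers (-0.61 ± 0.14, adjusted p = 0.0282, limma; 6.68% of all genes called in either direction). Hspb6 was lower in L-IRSdKO livers (-1.20 ± 0.23, adjusted p = 0.0117, limma, with 8.31% of all genes called lower). None of the 4 genes tested from the heat shock factor list was called in any comparison. They were Hsf1, Hsf2, Hsf4 and Hsbp1, the last encoding a heat shock factor binding protein. Hsf1 was at 21.6, 19.1, 17.3 and 21.5 RPKM in floxed and 16.9, 18.6, 15.1 and 18.3 RPKM in L-IRSdKO livers. Of the 8 subunits of TRiC, the cytosolic chaperonin, 1 was higher after the lean meal (7% of all genes) and 1 after the obese meal (1.22% in either direction). Of 10 other mitochondrial chaperones and proteases 3 were higher with dex plus S961 (304 of 11251 genes). In L-IRSdKO livers, where Hspd1 and Hspe1 were not called, 2 were higher (1175 of 12966 genes). Grpel2 of this list was also higher with S961 alone (0.77 ± 0.16, adjusted p = 0.0141, limma), as were 106 of 11251 genes, with the same fed vehicle livers as control. Cirbp rose in L-IRSdKO livers (0.51 ± 0.13, adjusted p = 0.0254, limma), and Rbm3, another cold-inducible RNA-binding protein, was not called there (-0.12 ± 0.21, adjusted p = 0.73).

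Binding sites of the glucocorticoid receptor (GR) and FOXO1, a factor held out of the nucleus by insulin signalling, and open chromatin (DNase) sites were deposited as positions with no height or replicate. In the study, the GR and FOXO1 sites were those shared by replicates of ZT14-unfed livers. The DNase sites came from fed and unfed ZT14 livers combined, so no list describes the fed, dex or S961 state by itself. A FOXO1 site lay within 2 kb of the start of 5 of 10 members, against 14.5% of 10316 expressed genes, and a GR site within 2 kb of 1, against 8.7%. Hspb1 had a FOXO1 site with its midpoint 121 bases from the start (chr5:136363578-136363757, mm9), Hsph1 410 bases (chr5:150439271-150439450), and Hspd1 and Hspe1 shared one at 196 and 85 bases (chr1:55144801-55144980). Hspa8 had GR and FOXO1 sites 1111 and 1106 bases from its start (chr9:40607866-40608045 and chr9:40607871-40608050). Within 50 kb, 8 members had a GR site (48% of genes) and 9 a FOXO1 site (50.6%). Hsp90aa1 had neither within 50 kb, and its nearest GR site was 163545 bases away. Every member had a DNase site within 2 kb, against 88.4% of genes. The shared promoter of Hspd1 and Hspe1, which holds the 18-base run printed above, contained both a DNase and a FOXO1 site, and the window of Hspb1 did too.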

How the data were processed

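Liver RNA of 54 mice was sequenced, and the authors deposited 1 table of RPKM values for 35707 RefSeq identifiers, made from reads aligned to mm9. STAR, DESeq2 and HOMER are named in the submitters' processing notes, while the counter, its strand setting and its treatment of reads with several places are not given in the sources used here. Counts were not used. Of the identifiers, 300 had no symbol and were left out, and the rest gave 24312 symbols. The deposited site lists hold positions only (10446 GR, 8546 FOXO1 and 83592 DNase sites).

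RPKM values were tested as log2(RPKM + 0.5) with limma 3.58.1 (R 4.3.3), with a mean-variance trend, all groups of an experiment in 1 fit, genes averaging 0.5 RPKM or more over the experiment's libraries, and Benjamini-Hochberg adjustment over all of them. The scale understates changes of low genes. Groups follow the sample labels. In the methods the mice were caged singly from 4 days before the experiments, and their litters and earlier cages are not given. The p-values set a group difference against the spread between these mice. The thresholds of 0.01 and 0.05 follow the study. The script was tested on simulated data. Python 3.11.15 was used for the rest. Library depth was estimated from RPKM steps and limits the precision of low genes such as Hspa1a, with counting error only.

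The members, gene lists, tests and alternatives were chosen with earlier results of these data known. Named were all members, Cirbp and Rbm3, the targeted genes, from each list at most 3 called genes per comparison with the smallest adjusted p, and the 8 genes most like the members. Alternatives covered the pseudocount, filter, scaling, trend, summing of identifiers, replicate block, libraries fitted and left out, library-number run, threshold and site windows.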

Additional observations from a re-analysis of the deposited data

Results flagged for a closer look

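Among 90 groups of 4 mice (a member in a group), 8 held 1 mouse apart from the other 3 by Dixon's ratio, where chance gives about 1 in 20. The members were measured in the same mice and varied together, so the 90 are not independent and the count is a description. Hspa8 accounted for 4 of them. In fed vehicle livers replicate 4 was at 253 RPKM, with the others at 138 to 150 RPKM. In unfed vehicle livers replicate 4 was at 217 RPKM, above 111 to 127 RPKM. In livers with dex plus S961 replicate 4 was at 161 RPKM, above 111 to 119 RPKM. In S961 livers replicate 2 was low, at 124 RPKM, below 172 to 182 RPKM. Hspd1 stood apart in unfed vehicle replicate 4 (80.4 RPKM, others 64.5 to 65.3 RPKM) and in dex plus S961 replicate 3 (73 RPKM, others 64.8 to 65.5 RPKM). Hspe1 stood apart in dex replicate 4 (51.1 RPKM, others 31.1 to 34.2 RPKM), and Hspa1a in AAV-CRE replicate 1 (2.4 RPKM, others 1.9 to 1.95 RPKM). Replicate 4 of the injection groups was the high mouse in 5 of these 8. The part of its separate run of library numbers was not tested beyond the fits with that run as a term or without replicate 4.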

How the results depend on the processing

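Over the members 2459 gene-level results under an alternative stayed on their side of the threshold, 96 lost and 30 gained it, and no called direction turned. The counts of members called moved as follows, and causes were not tested. For ZT14-unfed against ZT10 (5 called) there were 0 with no filter, 0 with the compared groups alone and 8 at a threshold of 0.05. For NRF fed against unfed (0) there were 3 with a mean of at least 2 RPKM and 4 at 0.05. For fed against unfed vehicle (0) there were 2 with the library-number run as a term, 1 in replicates 1 to 3 alone (added after seeing the data) and 1 with the compared groups alone. For dex plus S961 (4) there were 2 with no filter, 1 with median-ratio scaling, 1 with quantile normalization, 1 in replicates 1 to 3 alone and 0 at 0.01, and 6 with the library-number run as a term. For L-IRSdKO (4) there was 1 at 0.01. For the lean meal (2) there were 0 with no filter, 1 with median-ratio scaling, 0 with quantile normalization, 4 with the compared groups alone and 5 at 0.05. For the obese meal (0) there were 1 with a mean of at least 2 RPKM and 4 at 0.05. Leaving out single mice gave 0 to 6, 0 to 2 and 1 to 5 in the NRF comparisons (ZT14-unfed against ZT10, fed against unfed, fed against ZT10), 0 to 5 with dex plus S961, 3 to 4 in L-IRSdKO, 0 to 0 in the lean and 0 to 1 in the obese meal, and 0 to 0 elsewhere. Where a group is left with 1 mouse it is assumed to vary like the others.

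Pairing by replicate number was not shown: in no comparison did every pair of mice with the same number correlate over 0.1 in their deviations. The rule asked for at least 3 pairs, so the NRF comparisons, with 2 pairs each, could not meet it. For fed against unfed vehicle, same-number pairs ran from 0.05 to 0.51 and different numbers from -0.40 to 0.22. With S961 against fed vehicle these ranges were -0.12 to 0.61 and -0.43 to 0.46. A lack of pairing is therefore not shown either. With the replicate number as a block, 1 member was called in ZT14-unfed against ZT10, 1 in fed against unfed vehicle, 6 with dex plus S961, 3 in L-IRSdKO, 3 in the lean and 1 in the obese meal. Median-ratio scaling moved the calls over all genes from 41 higher and 86 lower to 48 and 27 in ZT14-unfed against ZT10, from 62 and 46 to 44 and 69 in NRF fed against unfed, from 113 and 246 to 168 and 107 with dex, from 106 and 108 to 144 and 55 with S961, from 519 and 259 to 288 and 368 with AAV-CRE, and from 48 and 40 to 34 and 78 for obese against lean, unfed.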

Other observations

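Chaperones of the endoplasmic reticulum, which fold secreted proteins and were not among the genes chosen, were called in several of the same comparisons. Of the 15 tested, 11 were called higher in fed than in unfed vehicle livers (3.13% of all genes in either direction; median log2 difference 0.77, against 0.10 for all genes), 9 after the lean meal (7% of all genes higher, 0.80 against 0.08) and 12 after the obese meal (1.22% in either direction, 1.24 against 0.02). With dex plus S961, 12 of 15 were lower (7.9% of all genes, -0.73 against -0.14), and in L-IRSdKO livers 13 of 15 (8.31%, -0.66 against 0.03). These counts are on the deposited scaling. Median-ratio scaling moved the calls over all genes from 287 higher and 65 lower to 100 and 116 for fed against unfed vehicle, and from 304 and 889 to 468 and 305 for dex plus S961, and the chaperone counts were not recomputed under it. None was called with dex alone, S961 alone or AAV-CRE, where the medians were -0.30, -0.56 and -0.01. The injection comparisons share the fed vehicle livers, and the list was drawn up with earlier results of these data known.

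The genes most opposed to the member mean over the 54 libraries, centred within each experiment, were Selenoo (r = -0.78), Xrn2 (-0.76) and Slc38a4 (-0.74). Agtr1a, the angiotensin receptor, stood at -0.70. Centred within groups, which takes out the ZT10 to ZT14 differences known when the members were chosen, they stood at -0.56, -0.61, -0.33 and -0.60. These 4 were chosen after their values were seen, and the values are descriptions, since the points share libraries.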
